A study of Mus musculus with 6 samples.

Results

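The semaphorins and their receptors are the genes described here, as measured in mouse prostate cancer cells that express PIM1, a serine/threonine kinase. Members were the probe sets annotated to exactly 1 gene symbol that names a semaphorin, a plexin, a plexin domain containing protein (Plxdc1 and Plxdc2) or a neuropilin, with the brightest probe set kept for each gene. The rule gave 33 genes of the 22180 tested: 20 semaphorins, 9 plexins, 2 neuropilins and 2 Plxdc genes. All 33 entered the test, since no filter on low signal was used.

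The cells were prostate epithelial cancer cells of Rb1F/F:Trp53F/F:PB-Cre4 mice. PB-Cre4 places the Cre recombinase under a probasin promoter, which acts in prostate epithelium, so PIM1 and control cells come from the same Rb1 and Trp53 deletion model. PIM1 cells had received a PIM1 lentivirus (3 arrays), and EV cells a control lentivirus with an empty vector (3 arrays). The comparison of PIM1 with EV asks how PIM1 expression changes transcript levels in this double-knockout background. The sources used here give neither the ages of the mice nor how many mice or lines the cells came from. No label says that replicate arrays came from separate cultures, so p-values reflect array-to-array spread, part or all of which may be technical.

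Semaphorins are guidance proteins, first known for steering growing axons and also active in blood vessels, immune cells and epithelial tumours. Class 3 members are secreted, classes 4 to 6 span the membrane, and Sema7a is held at the surface by a lipid anchor. Plexins are their main receptors and act inside the cell on small GTPases and the actin cytoskeleton. Most class 3 ligands need a neuropilin as the binding co-receptor, and neuropilins also bind VEGF proteins. The Plxdc proteins carry a plexin-like domain outside the cell but are not established semaphorin receptors.

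Values are log2 signals of single arrays, and differences are PIM1 minus EV with the standard error (SE) of the fit. A gene was called when its limma p, adjusted over all genes tested by the Benjamini-Hochberg method, was under 0.05. Array medians over all probe sets were 3.38 to 3.42 for PIM1 and 3.49 to 3.52 for EV, and arrays correlated at 0.994 to 0.996 within PIM1, 0.990 to 0.991 within EV and 0.963 to 0.967 between the groups. Pim1 signal was 6.89 to 7.11 on PIM1 arrays and 5.23 to 6.25 on EV arrays (adjusted p = 0.00455), although the labels do not say whether these probes read the introduced sequence. Rb1 signal was 4.50 to 5.26 on PIM1 arrays and 4.06 to 4.87 on EV arrays (adjusted p = 0.293), and since its probes may lie outside the deleted part, it checks nothing about the deletion. Of the labelled cell type's defining markers, Epcam averaged 2.35 in PIM1 and 2.50 in EV, and Pbsn averaged 1.53 in PIM1 and 1.77 in EV. In both groups 4 of 8 general epithelial, 2 of 5 luminal and 3 of 6 basal markers, Epcam and Pbsn included, lay below the median level of all genes tested (4.005). Other markers lay above it: the luminal genes Cd24a, Foxa1 and Hoxb13 averaged 9.21, 6.08 and 5.57 in PIM1 and 7.55, 6.29 and 4.99 in EV. Krt18, a keratin of simple epithelium, averaged 4.90 in PIM1 and 9.14 in EV (difference -4.24). Of 11 fibroblast markers 9 were higher and 1 lower in PIM1, and their summed log2 level was 85.8 to 86.5 on PIM1 arrays and 66.7 to 67.3 on EV arrays. Their means ran from 1.71 to 11.1 in PIM1 and from 1.78 to 9.96 in EV. In both groups 3 of the 11 lay below the all-gene median. Col3a1 averaged 11.14 in PIM1 and 9.96 in EV, and Dcn averaged 10.33 in PIM1 and 4.85 in EV. General epithelial markers summed to 27.9 to 28.5 on PIM1 arrays and 33.5 to 35.8 on EV arrays, with 0 of 8 higher and 3 lower, Krt18 carrying most of the gap. In cultures measured as a whole, fewer cells of a type and less RNA per cell cannot be told apart, and the part of these markers in the results was not tested.

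Of the 33 genes, 17 passed the test, 8 higher and 9 lower in PIM1, while 16 did not. That is 51.5% called, against 27.0% of all genes tested, for which 16.1% were higher and 10.9% lower (19.5% and 7.02% after median centring). Calls were more frequent among bright genes: of the brighter 11090 genes, tested alone, 5906 were called. That part holds 20 of the 33 members. There 2 semaphorins were called higher and 6 lower, 3 plexins and neuropilins higher and 2 lower, and Plxdc2 higher. A called difference of at least 2-fold was found for 2 members that were higher and 7 that were lower, against 4.55% and 1.70% of all genes (6.26% in either direction). The median difference was -0.02 over the 33 members and -0.05 over all genes, and the all-gene median turned sign under other scalings. The median size of the difference without its sign was 0.37 over the members and 0.23 over all genes. PIM1 and EV arrays were free of overlap for 21 members, 11 with PIM1 above and 10 with PIM1 below EV. Over all genes tested this held for 43.2%, with PIM1 above EV for 22.3% and below EV for 20.9%.

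**Figure D1:**
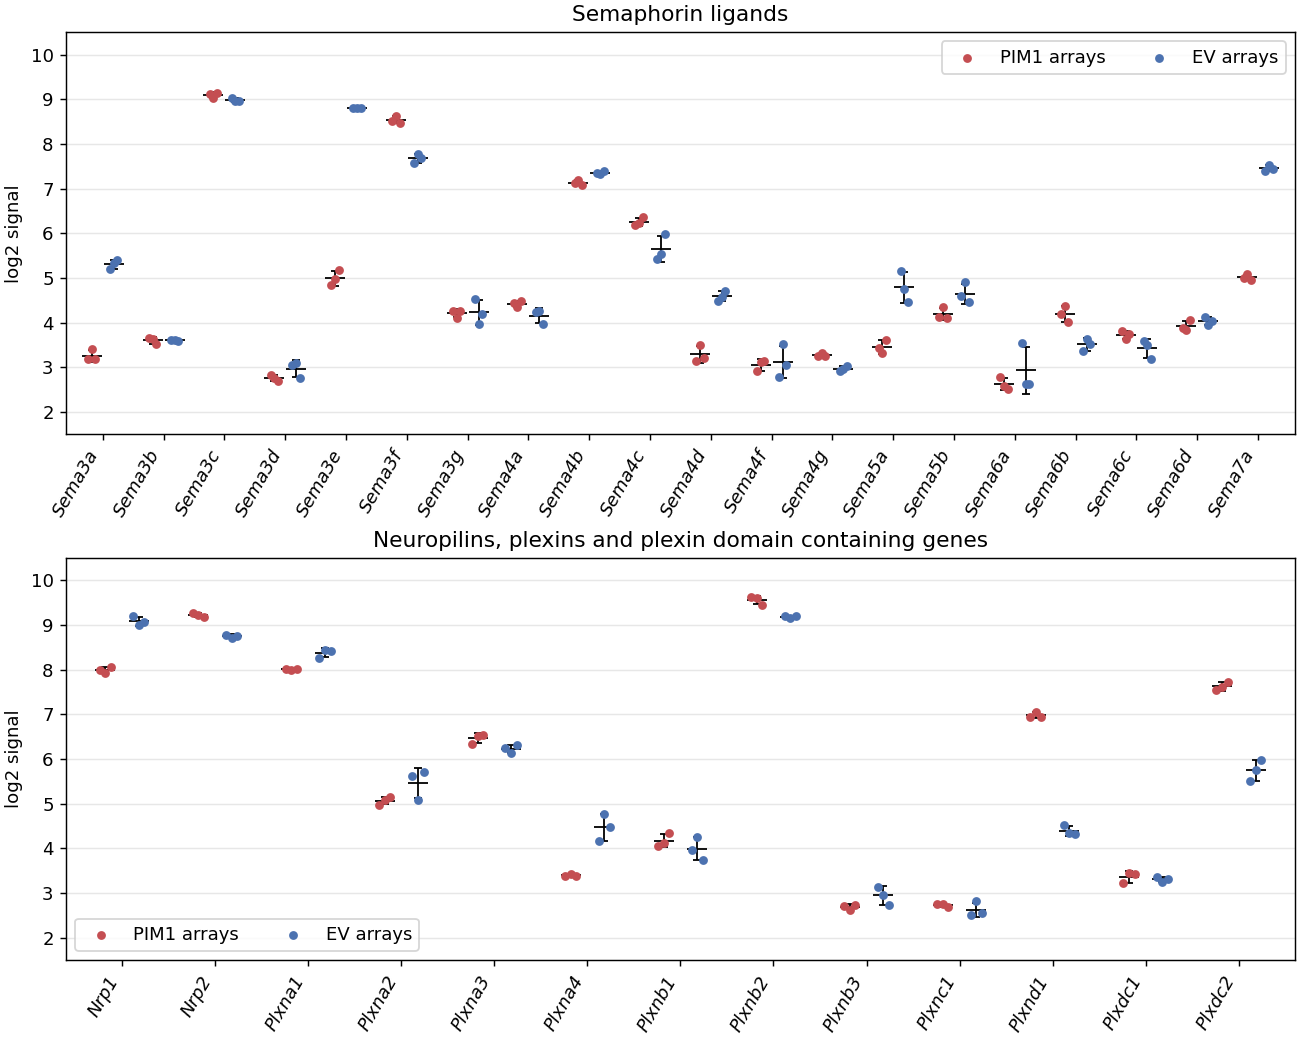
Log2 signal (vertical axis) of each of the 33 genes on the 3 PIM1 arrays (red) and the 3 EV arrays (blue); black bars give mean and SD. Sema3e, Sema7a and Sema3a lie lowest relative to EV, whereas Plxnd1 and Plxdc2 lie clearly above EV.

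Among the secreted class 3 semaphorins, 2 fell, 1 rose and 4 were not called. Counts by class and family, here and below, stand beside 16.1% higher and 10.9% lower over all genes tested. Sema3e, which signals through Plxnd1 without needing a neuropilin, read 4.84, 4.97 and 5.17 on PIM1 arrays, against 8.81, 8.81 and 8.80 on EV arrays. The groups were far apart and the EV arrays nearly identical. Its difference was -3.81 (SE 0.11, adjusted p = 4.11e-07), a 14.0-fold lower signal and the fall ranked 4 in size among all genes tested. Sema3a, which collapses growth cones through Nrp1 and class A plexins, read 3.19, 3.41 and 3.18 on PIM1 arrays, against 5.20, 5.33 and 5.40 on EV arrays. All PIM1 arrays lay below all EV arrays, with a difference of -2.05 (SE 0.11, adjusted p = 7.42e-06), or 4.14-fold.

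Sema3f, which binds Nrp2 and is known as an inhibitor of tumour vessels, moved the other way. It read 8.52, 8.64 and 8.47 on PIM1 arrays, against 7.58, 7.77 and 7.68 on EV arrays. The groups did not overlap, and Sema3f was 1.82-fold higher (difference 0.87, SE 0.10, adjusted p = 5.01e-04). Sema3c, a class 3 ligand that binds both neuropilins, read 9.12, 9.02 and 9.13 on PIM1 arrays, against 9.03, 8.97 and 8.95 on EV arrays. Its groups overlapped, and the difference of 0.11 was not called (95% interval -0.11 to 0.32, adjusted p = 0.441). Sema3b (-0.004), Sema3d (-0.21) and Sema3g (-0.02) were not called either, and each had overlapping groups.

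Sema3d, Sema3a, Sema3e and Sema3c follow each other in this order on chromosome 5 of assembly GRCm38.p6, with 0, 3 and 15 other protein-coding genes between consecutive members. The inner pair, Sema3a and Sema3e, fell, while the outer pair was not called. The sequences before the starts of Sema3e and Sema3c are shown because these class 3 neighbours differ most in response. They are the 250 bases before the RefSeq start of each gene (chr5:14025026-14025275 and chr5:17574566-17574815, both on the plus strand, GRCm38.p6), with capitals marking GC boxes (GGGCGG on either strand).
Sema3e: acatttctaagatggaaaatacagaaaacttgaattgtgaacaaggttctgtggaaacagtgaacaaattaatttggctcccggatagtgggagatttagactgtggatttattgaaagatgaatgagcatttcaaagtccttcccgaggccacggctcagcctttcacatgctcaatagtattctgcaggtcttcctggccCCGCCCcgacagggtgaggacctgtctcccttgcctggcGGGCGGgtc
Sema3c: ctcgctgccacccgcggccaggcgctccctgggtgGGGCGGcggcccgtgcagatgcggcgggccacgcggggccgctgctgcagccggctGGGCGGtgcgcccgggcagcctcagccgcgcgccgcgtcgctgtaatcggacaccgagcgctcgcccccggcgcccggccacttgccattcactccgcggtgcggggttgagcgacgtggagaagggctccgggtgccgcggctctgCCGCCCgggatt

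The Sema3e window held 2 GC boxes, 7 CpG dinucleotides and 48.0% G and C, whereas the Sema3c window held 3 GC boxes, 39 CpG dinucleotides and 78.4% G and C. A GC box occurs in 32.7% of 32851 such windows of all genes, whose median CpG count is 6. Neither window held a TATA box (TATAAA, in 12.4% of windows), an E-box (CACGTG, 6.02%), an AP-1 motif (TGANTCA, 6.75%), a STAT motif (TTCNNNGAA, 7.02%) or the NF-kappaB consensus (7.25%), each searched on both strands. These matches describe letters in a window and were not tied to binding or to the change in signal. RefSeq windows were at hand for 26 of the 33 members.

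The membrane-bound semaphorins of class 4 moved in both directions, with 2 of 6 higher, 1 lower and 3 not called. Sema4d, also called CD100, which signals through B plexins and is shed from the cell surface, read 3.15, 3.50 and 3.22 on PIM1 arrays, against 4.50, 4.56 and 4.71 on EV arrays. The groups did not overlap, and Sema4d was 2.47-fold lower (difference -1.30, SE 0.13, adjusted p = 1.69e-04). Sema4c, a Plxnb2 ligand, read 6.19, 6.23 and 6.36 on PIM1 arrays, against 5.43, 5.53 and 5.99 on EV arrays. It rose by 0.61 (SE 0.15, adjusted p = 0.0203), with EV replicate 3 closest to the PIM1 arrays. The Sema4c call was lost after quantile normalization (adjusted p = 0.0570) and without PIM1 replicate 1, 2 or 3 or EV replicate 1 or 2 (adjusted p between 0.0515 and 0.0743).

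Sema4g rose by 0.30 (SE 0.09, adjusted p = 0.0461) at a signal of 3.25 to 3.31 on PIM1 arrays and 2.92 to 3.04 on EV arrays. This was the only called member whose mean was below the all-gene median in both groups, and its call was lost whichever single array was left out (adjusted p from 0.0615 to 0.147) and with a trended and robust variance (0.119). Sema4b and Sema4a were not called, although their groups did not overlap. Sema4b differed by -0.22 (adjusted p = 0.120) and passed after quantile normalization (0.0361), after cyclic loess (0.0436) and among the brighter 11090 genes (0.0448). Sema4a differed by 0.27 (adjusted p = 0.125) and passed with arrays centred on their medians (0.0474). Sema4f differed by -0.06 with overlapping groups.

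Both class 5 semaphorins, which carry thrombospondin-type repeats, were lower in PIM1 cells. Sema5a, a ligand with Plxnb3 as a known receptor, read 3.44, 3.31 and 3.62 on PIM1 arrays, against 5.16, 4.76 and 4.46 on EV arrays. The EV arrays were spread by an SD of 0.35 but stayed above every PIM1 array, and the difference was -1.34 (SE 0.18, adjusted p = 9.32e-04). Sema5b fell by 0.45 (SE 0.14, adjusted p = 0.0433), reading 4.10 to 4.34 on PIM1 arrays and 4.46 to 4.90 on EV arrays. Its call was lost after median centring (0.0985) and without PIM1 replicate 1, 2 or 3 or EV replicate 1 or 2 (adjusted p from 0.0590 to 0.129).

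Of the 4 class 6 semaphorins, which act through class A plexins, 1 rose. Sema6b read 4.19, 4.37 and 4.02 on PIM1 arrays, against 3.36, 3.64 and 3.53 on EV arrays, and the groups did not overlap (difference 0.68, SE 0.13, adjusted p = 0.00520). Sema6a read 2.78, 2.57 and 2.52 on PIM1 arrays and 3.55, 2.63 and 2.63 on EV arrays, so that EV replicate 1 stood above all the others. Its difference of -0.31 had the widest interval of the 33 members (-0.86 to 0.24) and was not called. Sema6c (0.30, adjusted p = 0.124) was not called but passed after median centring (0.0484), and Sema6d differed by -0.11.

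Sema7a, the lipid-anchored semaphorin that binds Plxnc1 and beta 1 integrins, read 5.01, 5.08 and 4.95 on PIM1 arrays, against 7.41, 7.53 and 7.43 on EV arrays. Both groups were tight, with an SD of 0.06 in PIM1 and 0.07 in EV, and all PIM1 arrays lay below all EV arrays. The difference was -2.44 (SE 0.10, adjusted p = 1.57e-06), a 5.44-fold lower signal. Among the 20 semaphorins as a whole, 4 rose, 6 fell and 10 were not called, with a median difference of -0.09. That is 50% called, against 27% of all genes tested, for which 16.1% were higher and 10.9% lower. After median centring 6 semaphorins rose and 5 fell, and after quantile normalization 3 rose and 7 fell. Of the 6 that fell, 5 did so by at least 2-fold, whereas none of the 4 that rose reached 2-fold. Over all genes tested, a called difference of at least 2-fold was a fall for 1.70% and a rise for 4.55%.

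**Figure D2:**
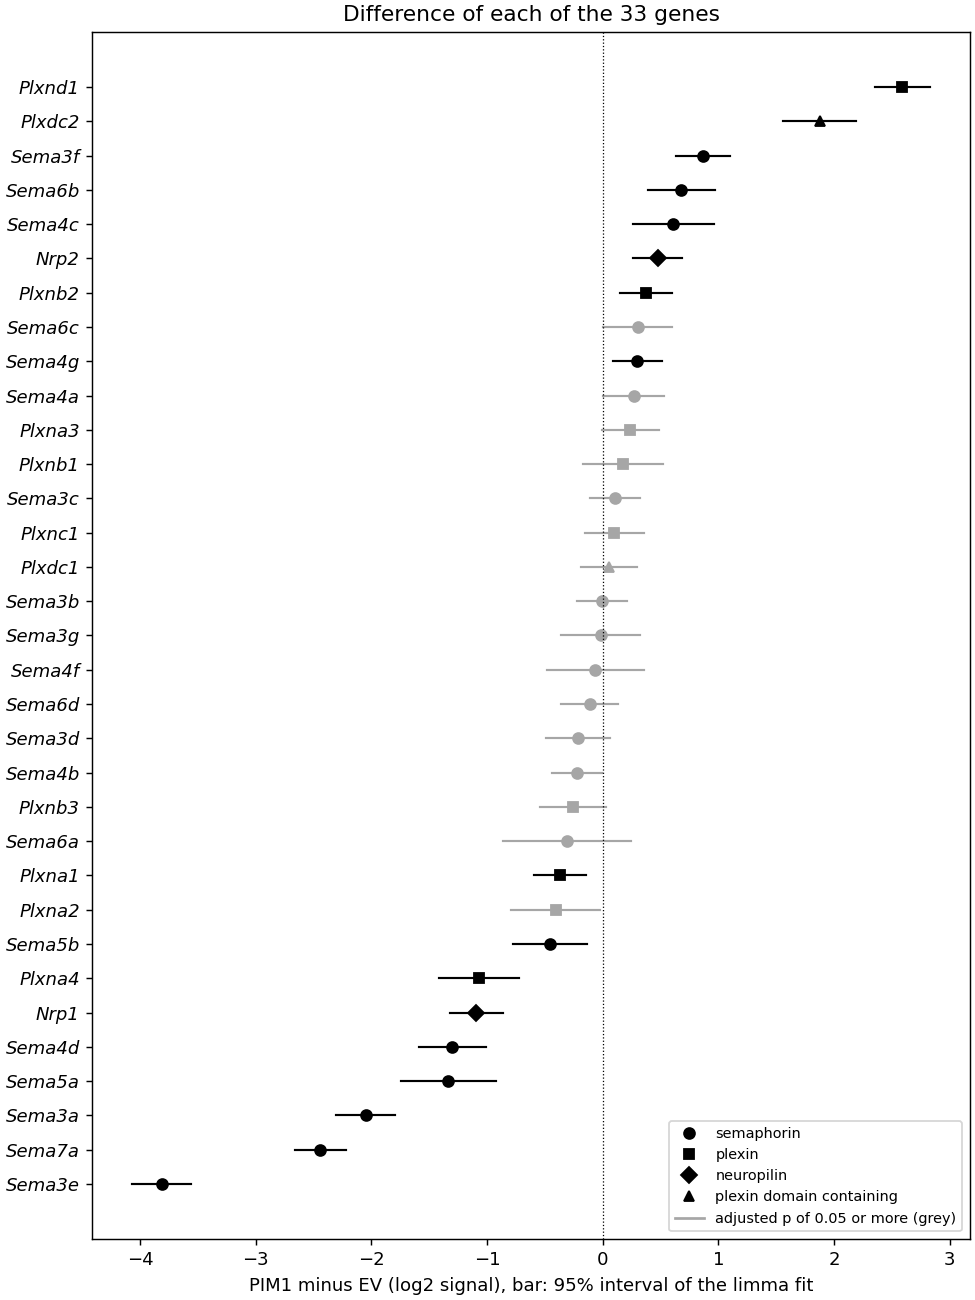
Difference of each gene, PIM1 minus EV in log2 signal (horizontal axis), with its 95% interval; marker shapes give the gene family and grey marks genes that were not called. The differences run from -3.81 for Sema3e to 2.59 for Plxnd1.

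The neuropilins changed in opposite directions. Nrp1, the co-receptor for Sema3a and for the main VEGF-A isoforms, read 8.01, 7.92 and 8.06 on PIM1 arrays, against 9.19, 9.00 and 9.07 on EV arrays. The PIM1 arrays were all lower, with a difference of -1.09 (SE 0.10, adjusted p = 1.38e-04), or 2.13-fold. Nrp2, the co-receptor for Sema3f and for VEGF-C, read 9.28, 9.22 and 9.19 on PIM1 arrays, against 8.79, 8.72 and 8.76 on EV arrays. The PIM1 arrays were all higher, by 0.47 (SE 0.09, adjusted p = 0.00625), or 1.39-fold.

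Of the 9 plexins, 2 rose, 2 fell and 5 were not called, so that 44.4% were called, against 27% of all genes tested. Plxnd1, the receptor of Sema3e and a regulator of vessel growth, read 6.95, 7.06 and 6.94 on PIM1 arrays, against 4.52, 4.35 and 4.32 on EV arrays. The groups were separated by far more than their spread, and the difference was 2.59 (SE 0.10, adjusted p = 1.68e-06), a 6.02-fold higher signal. Plxnd1 is known for its expression in endothelium, and all 8 endothelial markers lay below the all-gene median in both groups. Pecam1, Cdh5 and Tek averaged 2.84, 2.50 and 2.15 in PIM1 and 3.00, 2.47 and 2.19 in EV, and 0 of the 8 markers were higher in PIM1 while 1 was lower. Their summed log2 level was 20.8 to 21.9 on PIM1 arrays and 22.2 to 23.0 on EV arrays. Among VEGF receptor genes outside that marker list, Flt1 averaged 6.06 in PIM1 and 4.55 in EV and was called higher. Kdr (3.61 in PIM1 and 3.52 in EV) and Flt4 (3.62 and 3.66) were not called. Which cells gave the Plxnd1 signal was not tested.

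The class A plexins, which pair with neuropilins for class 3 ligands and bind class 6 ligands directly, held both plexins that fell. Plxna4 read 3.39, 3.43 and 3.39 on PIM1 arrays, against 4.17, 4.77 and 4.49 on EV arrays. The groups did not overlap, and the difference was -1.07 (SE 0.15, adjusted p = 0.00127). Plxna1 fell by 0.37 (SE 0.10, adjusted p = 0.0235), reading 8.01 on all 3 PIM1 arrays and 8.27, 8.44 and 8.43 on EV arrays. A dimmer second Plxna1 probe set read 0.21 higher in PIM1 (adjusted p = 0.458 in the fit of every named probe set), and the mean of both was not called (-0.08, adjusted p = 0.669). The Plxna1 call was also lost after median centring (0.0863) and without PIM1 replicate 1, 2 or 3 or EV replicate 2 or 3 (adjusted p from 0.0537 to 0.0785).

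Plxna2 read 4.98, 5.08 and 5.14 on PIM1 arrays, against 5.61, 5.09 and 5.72 on EV arrays, and EV replicate 2 lay among the PIM1 values. Its difference of -0.41 was not called (adjusted p = 0.114), but without EV replicate 2 it was -0.60 and passed (0.00854). Plxna3, the plexin that works with Nrp2 for Sema3f, differed by 0.24 (adjusted p = 0.140) without overlap of the groups. Among the B plexins, receptors of class 4 ligands, Plxnb2 rose by 0.37 (SE 0.10, adjusted p = 0.0232). Plxnb2 read 9.63, 9.60 and 9.45 on PIM1 arrays and 9.20, 9.17 and 9.20 on EV arrays, and its call was lost without PIM1 replicate 1 (0.0942), PIM1 replicate 2 (0.0863) or EV replicate 2 (0.0558). Plxnb1 (0.18), Plxnb3 (-0.26) and Plxnc1 (0.10) were not called and had overlapping groups.

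Plxdc2, a transmembrane protein described as a receptor for the secreted factor PEDF, read 7.54, 7.62 and 7.73 on PIM1 arrays, against 5.51, 5.76 and 5.99 on EV arrays. It was higher on every PIM1 array, by 1.88 (SE 0.14, adjusted p = 3.47e-05), or 3.67-fold. Its relative Plxdc1, first described as a tumour endothelial marker, read 3.22, 3.45 and 3.42 on PIM1 arrays and 3.37, 3.25 and 3.32 on EV arrays. Plxdc1 differed by 0.05 with overlapping groups and was not called (adjusted p = 0.758).

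Over the 16 members that were not called, differences ran from -0.41 to 0.30, and the 95% intervals reached no lower than -0.86 and no higher than 0.60. Of these, 12 had overlapping groups, and the 4 without overlap were Plxna3, Sema4a, Sema4b and Sema6c. The mean lay below the all-gene median in both groups for 9 of the 33 members. Without detection calls the part of background in low signals is not known, and folds against them may be compressed. Probes differ in brightness, which limits every reading against the all-gene median and the summed marker levels. Beyond these, levels of different genes are not set against each other.

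Known ligand and receptor pairs were then read side by side, as a description. Sema3e fell by 3.81 while its receptor gene Plxnd1 rose by 2.59. Sema3c, also paired with Plxnd1 and with both neuropilins, was not called (0.11). Sema3a fell together with its receptor genes Nrp1 and Plxna4, and with the brighter probe set of Plxna1. The mean of both Plxna1 probe sets was not called (-0.08, adjusted p = 0.669 by limma). The other class A plexins, Plxna2 (-0.41) and Plxna3 (0.24), were not called. Sema3f rose together with Nrp2, while Plxna3, the plexin that works with Nrp2 for it, was not called. Sema6b rose and Plxna4, one of its receptors, fell. Sema4d fell by 1.30, while its receptor genes differed by 0.18 for Plxnb1, which was not called, and by 0.37 for Plxnb2. Sema4c, also paired with Plxnb2, rose by 0.61, and the calls of Sema4c and Plxnb2 were lost under some alternatives. Sema5a fell by 1.34, and its receptor gene Plxnb3 was not called (-0.26). For Sema7a, the plexin receptor gene Plxnc1 stayed uncalled at a low signal of 2.68 to 2.76 on PIM1 arrays and 2.52 to 2.81 on EV arrays. The integrin subunit gene Itgb1, chosen after its value was seen, fell by 0.79 (SE 0.09, adjusted p = 4.87e-04), whereas Itga1 rose by 1.32.

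**Figure D3:**
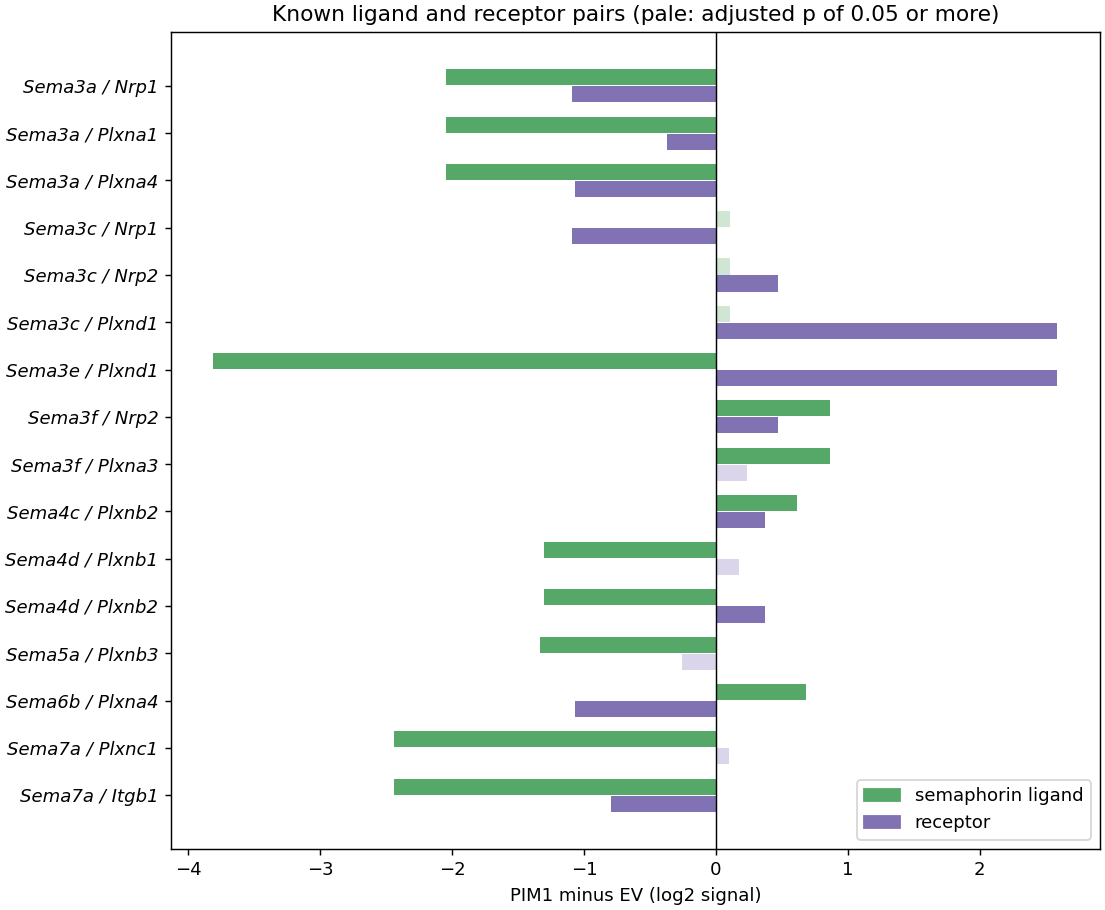
PIM1 minus EV in log2 signal (horizontal axis) for 16 selected known pairs of a semaphorin (green) and a receptor gene (purple), with pale bars for genes that were not called. Not every known pair is drawn. The Itgb1 pair was chosen after its value was seen, and Itga1, which rose by 1.32, is not drawn. Sema3e and Plxnd1 point in opposite directions (-3.81 and 2.59), whereas Sema3a and Nrp1 point the same way (-2.05 and -1.09).

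The genes around this system were followed in 4 lists. Below the all-gene median in both groups lay 4 of 12 co-receptors, 2 of 8 VEGF genes, 4 of 26 effectors and 1 of 7 proteases. Calls were more frequent among bright genes (5906 of the brighter 11090), so shares over all genes are a limited comparison for these lists. Of 12 measured co-receptors and alternative semaphorin receptors, 3 rose and 3 fell, with a median difference of -0.01, against 16.1% higher, 10.9% lower and a median of -0.05 over all genes tested. Chl1, a neural adhesion molecule that takes part in Sema3a signalling, read 7.58, 7.72 and 7.96 on PIM1 arrays, against 2.83, 2.37 and 2.45 on EV arrays (difference 5.20, SE 0.15, adjusted p = 4.31e-07). Met, the hepatocyte growth factor receptor, which associates with B plexins, read 6.74, 6.62 and 7.03 on PIM1 arrays, against 8.76, 8.75 and 8.63 on EV arrays (difference -1.92, SE 0.13, adjusted p = 2.12e-05). Both genes had groups that did not overlap. Itga1, the integrin alpha 1 subunit that forms a Sema7a receptor with Itgb1, rose by 1.32 (SE 0.15, adjusted p = 3.48e-04).

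Of 8 VEGF ligand and receptor genes that share the neuropilins, 6 rose and 0 fell, with a median difference of 0.82. The number higher was 4 without PIM1 replicate 2 or 3. It was 5 after quantile normalization, after cyclic loess and with the replicate number as a block. Of all genes tested 16.1% were higher, and the median over all genes was -0.05. All 4 lists were chosen with earlier results of these data known, so such shares describe the lists and test nothing. Vegfa, the main endothelial growth factor, read 9.56, 9.67 and 9.66 on PIM1 arrays, against 8.39, 8.31 and 8.39 on EV arrays (difference 1.27, SE 0.09, adjusted p = 3.96e-05). Vegfd, a ligand of the lymphatic receptor, rose by 1.16 (SE 0.11, adjusted p = 1.28e-04), and Flt1, which encodes VEGF receptor 1, rose by 1.51 (SE 0.18, adjusted p = 5.20e-04). The remaining calls in this list were those of further ligands, and 2 receptor genes were not called.

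Intracellular effectors of plexins and neuropilins moved in both directions, with 5 of 26 higher (19.2%), 6 lower (23.1%) and a median of -0.10. The share higher is near the 16.1% of all genes, for which 10.9% were lower. Among the brighter 11090 genes, of which 5906 were called, 5 effectors were higher and 7 lower. The number lower was 3 without PIM1 replicate 2. Dpysl3, of the collapsin response mediator family that binds tubulin and actin, fell by 1.24 (SE 0.10, adjusted p = 5.68e-05). Farp1, a guanine nucleotide exchange factor of the FERM family, fell by 0.81 (SE 0.09, adjusted p = 4.14e-04). Sh3bp1, a Rac GTPase-activating protein linked to Sema3e and Plxnd1 signalling, rose by 1.15 (SE 0.11, adjusted p = 1.55e-04).

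Of 7 proteases that process or shed semaphorins, 3 rose and 0 fell, with a median of 0.17, beside 16.1% higher and 10.9% lower over all genes tested. Pcsk6, a proprotein convertase, read 7.46, 7.45 and 7.42 on PIM1 arrays, against 5.48, 5.67 and 5.67 on EV arrays (difference 1.84, SE 0.10, adjusted p = 7.16e-06). Adam17, a sheddase of many surface proteins, rose by 0.95 (SE 0.11, adjusted p = 3.66e-04). Mmp14, a membrane-type matrix metalloproteinase reported to release Sema4d, rose by 0.37 (SE 0.09, adjusted p = 0.0185), and its call was lost without PIM1 replicate 1 (0.0789) or 2 (0.0611).

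**Figure D4:**
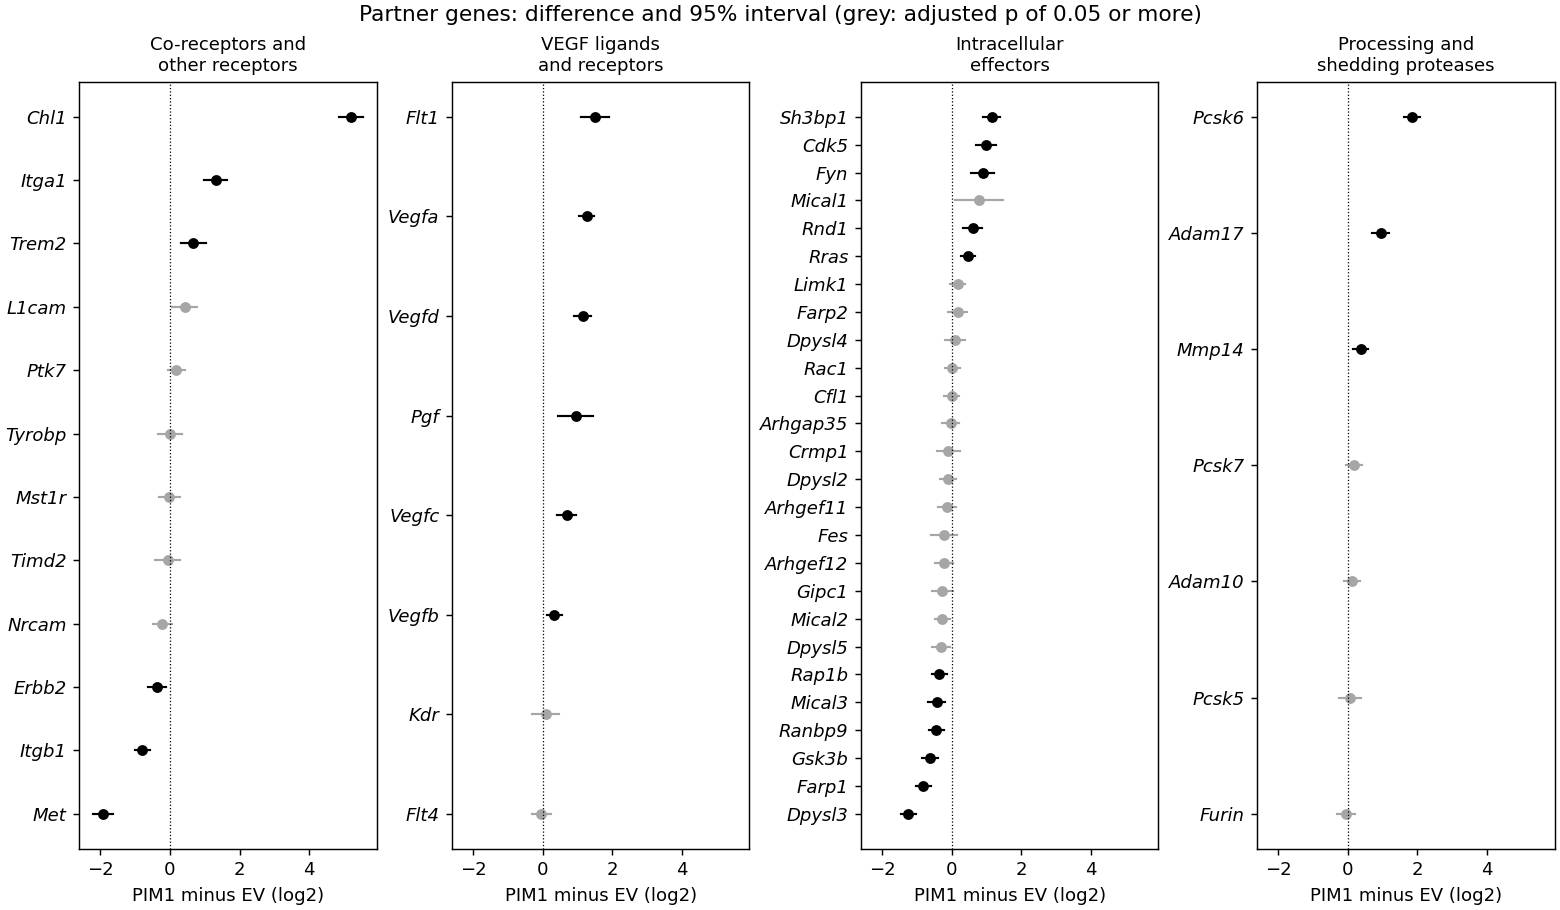
PIM1 minus EV in log2 signal (horizontal axes) with 95% intervals for the measured genes of the 4 partner lists; grey marks genes that were not called. Chl1 stands furthest right (5.20) and Met furthest left (-1.92).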

How the data were processed

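RNA from 3 PIM1 and 3 EV samples was measured on Affymetrix whole-transcript arrays. The authors deposited 1 value per probe set and array, read here as log2 signal from its range. The sources used here do not give the log base, background correction or normalization, and the submitters' processing notes name Affymetrix Expression Console. The deposited log2 values were used without further scaling, and 3 arrays per group limit the precision.

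Groups came from sample titles. Gene symbols came from the platform annotation: 23521 of 41345 probe sets had 1 symbol, 1814 several and 16010 none. All 33 members matched RefSeq (GRCm38.p6) by Entrez identifier, which also gave gene order and promoter sequences. The brightest probe set per gene was tested two-sided in R 4.3.3 by limma 3.58.1, using lmFit and then eBayes with group as the term and Benjamini-Hochberg adjustment over 22180 genes. The script was tested on simulated data. Every member is named, plus the 3 genes of each partner list with the smallest p. Itgb1 was named after its value was seen, and Kdr and Flt4 of the VEGF list were named beside Flt1. Members and lists were chosen with earlier results of these data known. Cd72, Rhod, Rap1a and Pak1 of the lists were not analysed here. Other marker lists gave, as counts higher and lower in PIM1, 2 and 0 of 5 luminal, 0 and 3 of 6 basal, 1 and 1 of 8 macrophage and leukocyte, 2 and 2 of 7 smooth muscle, and 0 and 2 of 8 neuron and Schwann cell genes. Alternatives covered normalization, variance, brightness, probe sets, the replicate number and each array left out.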

Additional observations from a re-analysis of the deposited data

How the results depend on the processing

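Of the 17 called members, 12 were called in the same direction under each of the 14 alternatives that tested them. These are Sema3a, Sema3e, Sema3f, Sema4d, Sema5a, Sema6b, Sema7a, Nrp1, Nrp2, Plxna4, Plxnd1 and Plxdc2. The calls of Sema4c, Sema4g, Sema5b, Plxna1 and Plxnb2 were lost under some, as given beside each. Semaphorins called higher numbered 2 among the brighter 11090 genes, where 20 of the 33 members were tested, and 2 to 3 when single arrays were left out. Leaving out single arrays also gave 3 to 6 effectors called lower. No label says whether same-numbered arrays were prepared together. Their deviations from the group means correlated at 0.0558, -0.0314 and 0.00875, so no large shared effect was seen. These correlations cannot show how the arrays were prepared. With the replicate number as a block, Sema4g, Plxna1, Plxnb2 and Mmp14 lost their calls (adjusted p = 0.0967, 0.0540, 0.0541 and 0.0507), and 3 semaphorins were called higher. The all-gene median, -0.05 as reported, was 0.01 after quantile normalization and after cyclic loess, 0.05 after median centring and 0.10 among the brighter 11090 genes. The semaphorin median, -0.09 as reported, was 0.01 after median centring and -0.22 among those brighter genes.

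The sign turned only for genes that were not called under either setting. After quantile normalization Sema3b was at 0.0863, Sema3g at 0.00271 and Sema4f at 0.0485. After median centring Sema3b was at 0.0939, Sema3g at 0.0796 and Sema4f at 0.0348. After cyclic loess Sema3b was at 0.0802 and Sema4f at 0.0574. Without single arrays Sema3b ran from -0.0266 to 0.0376, Sema3g from -0.149 to 0.132 and Sema4f from -0.227 to 0.135. Plxnb1 was at -0.00990 as the mean of its probe sets.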

Other observations

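Plxna4os1, the gene antisense to Plxna4, had a probe set of its own that read 2.77, 2.58 and 2.57 on PIM1 arrays and 2.77, 3.01 and 2.94 on EV arrays. Its difference of -0.27 was not called in the limma fit over all 23521 probe sets (adjusted p = 0.124). The dimmer second probe set of Plxnb1 read 3.10, 3.08 and 3.10 on PIM1 arrays and 3.39, 3.23 and 3.25 on EV arrays. Its difference of -0.20 (adjusted p = 0.179 in that same fit) ran against the 0.18 of the brighter one, and neither was called.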
